A study of Mus musculus with 8 samples.

Results

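The genes described here are the type 1 vomeronasal receptors (V1R) of 2 mouse chromosomes, chosen by symbol: every intact Vmn1r entry numbered from Vmn1r186 to Vmn1r237 in the deposited expression table. The symbols took in 48 of the 27532 genes listed, 34 of them on chromosome 13 (Vmn1r188 to Vmn1r223) and 14 on chromosome 17 (Vmn1r224 to Vmn1r237). They were 48 of the 207 V1R genes in the table. The symbol range spans 52 numbers, and the 4 without a row were not analysed here. Expression was measured by RNA sequencing of whole vomeronasal organs from 4 Tex15 heterozygous and 4 Tex15 knockout mice, 1 library per animal. Heterozygous replicate 1 was a male of 11.4 weeks, replicate 2 a female of 14.6 weeks, and replicates 3 and 4 were females of 11.9 weeks. Knockout replicate 1 was a female of 11.9 weeks, replicates 2 and 3 were males of 11.9 weeks, and replicate 4 was a male of 12.1 weeks. The controls were heterozygous for Tex15 and not wild type. The nature of the knockout allele was not given in the sources used here.

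V1R genes encode G protein-coupled receptors of the apical sensory neurons of the vomeronasal organ, which detect pheromones and other social odours and signal through the G protein subunit Gnai2. Each neuron is known to express one or very few receptor genes, so the level of a receptor in whole tissue reflects both how many neurons use it and how much RNA each of those makes, which cannot be told apart in these data. V1R genes lie in clusters of recent duplicates, and their older symbols group them into clades by sequence. The older symbols that RefSeq lists as synonyms placed 19 of the chromosome 13 genes in clade V1rh and 9 in V1ri, and 8 of the chromosome 17 genes in V1re and 5 in V1rf. The other 7 genes (Vmn1r194, Vmn1r204, Vmn1r207, Vmn1r209, Vmn1r221, Vmn1r223 and Vmn1r224) had no such synonym.

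Both sets lie in compact arrays. In GENCODE M21 (build GRCm38), the chromosome 13 set runs from base 22084440 to base 23253906 and the chromosome 17 set from base 20414146 to base 21314912. When each coding sequence was aligned with that of every other V1R gene, the nearest relative was another of the 48 genes for 47 of them. Identity to the nearest relative was 72.4% to 96.0% on chromosome 13 and 58.4% to 80.7% on chromosome 17, so the chromosome 13 genes are the more closely related. Between 81.1% and 100% of the 100-base windows of each gene's transcripts occurred in no other gene's transcripts.

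The coding stretches of 4 groups of relatives follow, each led by a gene described below. All are from GENCODE M21 transcripts, 5′ to 3′ on the coding strand, each within 1 coding exon. Capitals mark bases that differ from the first gene of the group, and in the first gene the bases at which any of the others differs. The first group holds Vmn1r202, which was far lower in knockout libraries, at chr13:22502156-22502245 on the minus strand, with its nearest relatives Vmn1r204 at chr13:22556201-22556290 and Vmn1r216 at chr13:23099149-23099238, both on the plus strand.
Vmn1r202: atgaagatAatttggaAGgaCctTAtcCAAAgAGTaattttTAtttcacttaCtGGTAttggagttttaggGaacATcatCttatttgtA
Vmn1r204: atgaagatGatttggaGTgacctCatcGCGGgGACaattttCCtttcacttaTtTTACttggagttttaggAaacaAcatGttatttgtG
Vmn1r216: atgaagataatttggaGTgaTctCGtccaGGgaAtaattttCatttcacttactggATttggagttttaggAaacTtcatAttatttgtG

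The second group sets Vmn1r221, at chr13:23217373-23217462 on the plus strand, beside close relatives with other fold changes: Vmn1r189 at chr13:22102576-22102665 on the minus strand and Vmn1r200 at chr13:22395029-22395118 on the plus strand. In these 90 bases Vmn1r189 differed from Vmn1r221 at 1 base and Vmn1r200 at 19.
Vmn1r221: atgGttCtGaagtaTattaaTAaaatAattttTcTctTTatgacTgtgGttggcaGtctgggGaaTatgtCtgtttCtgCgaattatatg
Vmn1r189: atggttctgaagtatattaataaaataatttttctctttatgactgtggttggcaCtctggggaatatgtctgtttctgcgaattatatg
Vmn1r200: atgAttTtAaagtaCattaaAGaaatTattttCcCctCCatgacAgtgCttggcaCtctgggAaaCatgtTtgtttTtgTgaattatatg

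The last groups pair the 2 called genes of chromosome 17 with their nearest relatives. Vmn1r232 at chr17:20914125-20914214 and Vmn1r228 at chr17:20777088-20777177 are both on the minus strand and differed at 17 of the 90 bases. Vmn1r236 at chr17:21286691-21286780 on the plus strand and Vmn1r233 at chr17:20994597-20994686 on the minus strand differed at 25.
Vmn1r232: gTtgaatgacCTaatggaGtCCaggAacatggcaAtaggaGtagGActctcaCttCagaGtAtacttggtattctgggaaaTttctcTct
Vmn1r228: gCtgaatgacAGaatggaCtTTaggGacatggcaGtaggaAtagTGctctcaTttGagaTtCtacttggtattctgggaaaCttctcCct
Vmn1r236: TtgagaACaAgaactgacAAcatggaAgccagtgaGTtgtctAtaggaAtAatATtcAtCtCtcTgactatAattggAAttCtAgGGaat
Vmn1r233: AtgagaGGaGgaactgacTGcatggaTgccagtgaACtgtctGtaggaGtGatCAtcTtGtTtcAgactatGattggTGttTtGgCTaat

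Values are TPM (transcript abundance, scaled to the same library sum), as the authors deposited them. Tex15 itself was listed at 2.52 ± 0.279 TPM (SD, n = 4) in heterozygotes against 1.09 ± 0.155 TPM (SD, n = 4) in knockouts, with no overlap. Depths recovered from the steps between low values were 17899514 to 26480437 reads per library, and knockout replicate 1 was the shallowest, with 2988 genes at 0 against 1287 to 1808 elsewhere. Over 11 marker lists of the cell types the tissue could hold, 0 of 59 tested genes were called by limma, 2 had an unadjusted p under 0.05, and limma-voom on recovered reads called 0. The level of Gnai2, which marks apical neurons, was 114 to 302 TPM in heterozygotes against 199 to 292 TPM in knockouts, and heterozygous replicate 2 had the lowest. The mature neuron marker Omp was at 66.6 TPM in heterozygous replicate 1 against 571 to 943 TPM in the other libraries; that library was not the lowest for the other mature neuron markers (Ckb, Adcy2, Gng13, Stoml3, Ano1 and Ano2). Omp and Stoml3 were the 2 markers with a low unadjusted p. Stoml3, of sensory neurons, was at 68.6 ± 53.2 TPM in heterozygotes and 20.2 ± 4.93 TPM in knockouts (SD, n = 4 each), without overlap, at a log2 fold change of -1.31 relative to the median gene. The main olfactory genes Cnga2 and Gnal were at -1.19 and -1.06, both highest in heterozygous replicate 2 (27.3 and 14.7 TPM), and the 7 genes of that list had a median of -0.42, with summed levels of 91.0 to 175 TPM in heterozygotes and 78.8 to 99.3 TPM in knockouts. The part of these differences in the results below was not tested.

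The 48 genes were expressed at low to moderate levels, from 0.0264 to 9.77 TPM as a mean over the 8 libraries. Summed per library, the chromosome 17 genes made 55.3, 37.6, 110 and 83.1 TPM in heterozygous replicates 1 to 4 and 14.3, 25.8, 26.4 and 37.8 TPM in knockout replicates 1 to 4. The chromosome 13 genes made 67.9, 45.6, 123 and 86.3 TPM in the heterozygous and 47.3, 72.3, 83.2 and 85.1 TPM in the knockout libraries. The genotypes overlapped in both sums, narrowly on chromosome 17 and broadly on chromosome 13, and heterozygous replicate 2 was lowest of its group in both.

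Relative to all V1R RNA, the chromosome 17 set was clearly separated by genotype. It was 11.7% ± 0.605 (SD, n = 4) of summed V1R TPM in heterozygotes against 4.07% ± 0.536 (SD, n = 4) in knockouts, while the chromosome 13 set was 13.4% ± 0.927 and 11.6% ± 0.599 (SD, n = 4 each). Neither share overlapped between genotypes, although the gap on chromosome 13 was between 12.5% and 12.3%. Summed TPM of all V1R genes was 613 ± 267 in heterozygotes against 629 ± 174 in knockouts (SD, n = 4 each), with overlap. Among the 6 animals of the later number series (heterozygous replicates 3 and 4 and all knockouts), the share differed by -7.82 percentage points on chromosome 17 and by -1.27 on chromosome 13.

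The ratio of the sets, which does not depend on how a library is scaled, was 0.814, 0.824, 0.893 and 0.963 in heterozygous replicates 1 to 4 and 0.302, 0.357, 0.317 and 0.444 in knockout replicates 1 to 4. Every heterozygous library made nearly as much RNA from the chromosome 17 genes as from those of chromosome 13, and every knockout library at most 0.444 times as much. The log2 difference of the ratio was -1.31 over all libraries. It was -1.56 in females, with 1 knockout library, and -1.14 in males, with 1 heterozygous library. Per TPM of Gnai2, the chromosome 17 genes made 0.332 ± 0.0235 TPM in heterozygotes against 0.103 ± 0.0261 TPM in knockouts (SD, n = 4 each), again without overlap. The chromosome 13 genes made 0.381 ± 0.0370 and 0.289 ± 0.0397 TPM per TPM of Gnai2 (SD, n = 4 each), with overlap.

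**Figure D1:**
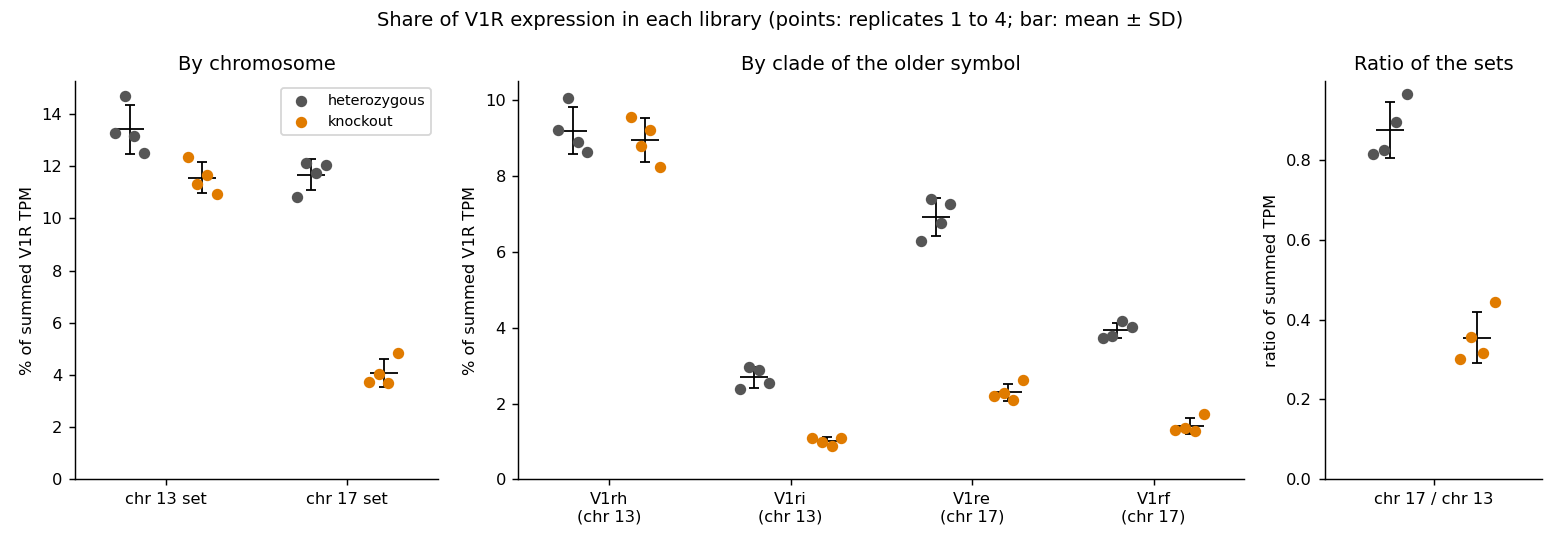
Left and middle, percent of the summed V1R TPM of each library that came from each chromosome's set and from each clade; right, ratio of the summed TPM of the chromosome 17 set to that of the chromosome 13 set. Points are libraries and bars the mean ± SD of 4; the V1ri, V1re and V1rf shares and the ratio are lower in every knockout library, whereas the V1rh points of both genotypes overlap.

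The clades followed different courses. V1re, of chromosome 17, was 6.93% ± 0.504 of V1R TPM in heterozygotes against 2.30% ± 0.224 in knockouts, and V1rf, also of chromosome 17, 3.93% ± 0.201 and 1.41% ± 0.210 (SD, n = 4 each). V1ri, which lies on chromosome 13 among the V1rh genes, was 2.69% ± 0.273 and 1.02% ± 0.0986 (SD, n = 4 each). Vmn1r192 and Vmn1r202 carried that lower V1ri level: the other 7 V1ri genes, set apart after their values were seen, had summed TPM of 3.41 ± 1.56 in heterozygotes against 3.60 ± 1.26 in knockouts (SD, n = 4 each). Those sums held Vmn1r198, whose mean was higher in knockout libraries, and the 6 genes without it summed to 1.95 ± 0.676 and 0.518 ± 0.163 TPM (SD, n = 4 each). V1rh, the largest clade, was 9.20% ± 0.611 and 8.96% ± 0.572, with overlap (SD, n = 4 each). Within the chromosome 13 set the V1ri genes therefore went from 20.1% ± 1.61 of its TPM in heterozygous to 8.86% ± 0.962 in knockout libraries (SD, n = 4 each). These shares were not tested, since the genes were chosen with earlier results known.

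Single genes were tested with limma on log2(TPM + 0.5), with genotype and sex as terms. A gene needed a mean of 0.5 TPM, which 38 of the 48 reached, 25 on chromosome 13 and 13 on chromosome 17. Genes were called at a Benjamini-Hochberg adjusted p under 0.05 over the 20305 genes tested. Fold changes are log2 differences, knockout against heterozygous, relative to the median tested gene, which itself stood 0.19 higher in knockout libraries; the test itself was of the fitted difference. Of the 38, 3 were called and all 3 fell, where 0.586% of all tested genes were called and 0.374% were called lower. In the other direction 0 were called by limma, against 0.212% of all tested genes; 2 of the higher genes had an unadjusted p under 0.05, and limma-voom on recovered reads called 0 higher, against 0.0593% of the genes it tested.

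Vmn1r232, a V1re receptor gene of chromosome 17 (minus strand, bases 20913163 to 20919714), had the lowest fold change of the 38 tested genes in this fit. It was at 4.55, 4.43, 8.34 and 8.15 TPM in heterozygous replicates 1 to 4 and at 0.393, 0.816, 0.613 and 0.713 TPM in knockout replicates 1 to 4. The lowest heterozygous library stood far above the highest knockout library. The log2 fold change was -2.73 (SE 0.42), with an adjusted p of 0.00246 by limma.

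Vmn1r236, a V1rf gene of the same array (plus strand, bases 21282942 to 21294007), was at 5.48, 3.30, 10.4 and 7.32 TPM in heterozygous and at 0.376, 1.38, 1.13 and 1.95 TPM in knockout replicates 1 to 4. The genotypes did not overlap, and knockout replicate 1 was the lowest library. Its log2 fold change was -2.48 (SE 0.46, adjusted p 0.0184 by limma), which placed it nearest the threshold among the called genes. Just outside stood Vmn1r231, a V1re gene, at 9.61 ± 4.37 and 2.38 ± 0.474 TPM (SD, n = 4 each), with a log2 fold change of -1.90 and an adjusted p of 0.113 by limma. After median-ratio scaling limma called Vmn1r231 lower (adjusted p 0.0026), as did limma-voom (adjusted p 0.034). Without a filter it was not called (limma adjusted p 0.327).

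Vmn1r202 was the called gene of chromosome 13 (minus strand, bases 22497750 to 22505381), a V1ri receptor gene. It was at 3.997, 2.18, 6.67 and 4.93 TPM in heterozygous and at 0.399, 0.552, 0.484 and 0.517 TPM in knockout replicates 1 to 4. All knockout libraries sat close together and well below every heterozygous library. The log2 fold change was -2.46 (SE 0.43), with an adjusted p of 0.00964 by limma. The two-sided exact permutation test over all ways to split the 8 libraries by 4 and 4 gave 0.0286, the smallest p it can give, for each of the 3 called genes, and 0.9999 after Benjamini-Hochberg adjustment over all tested genes.

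**Figure D2:**
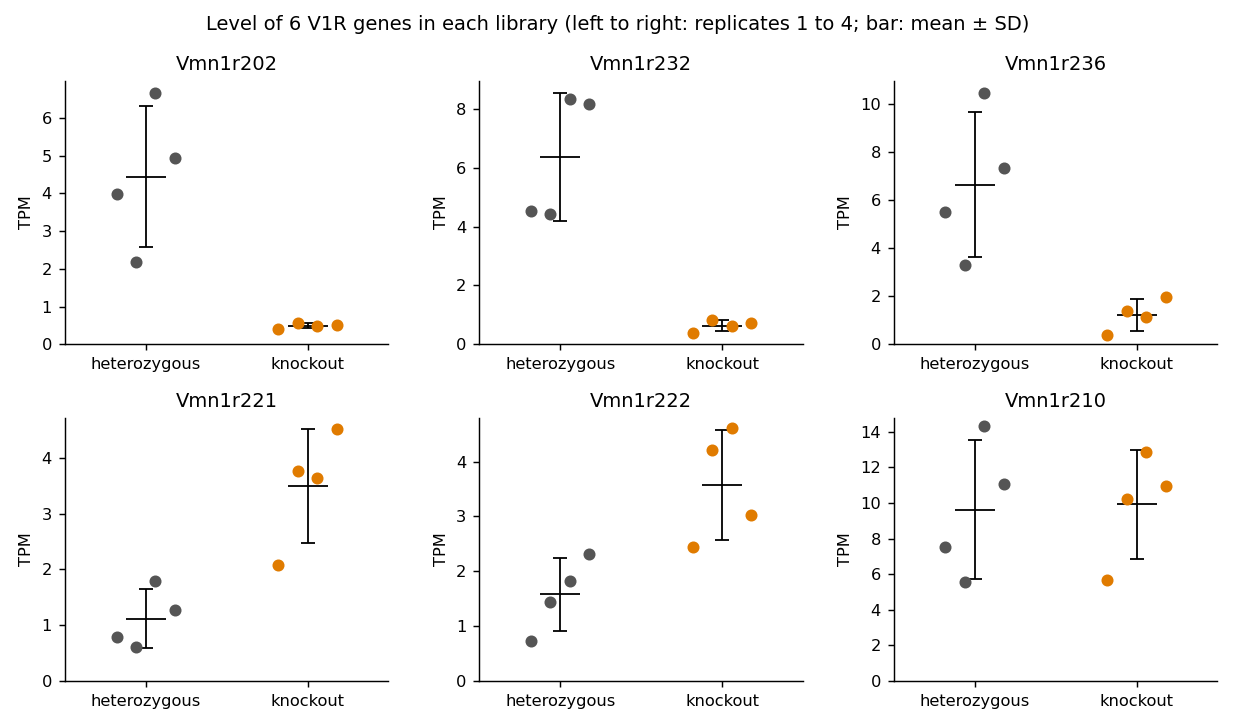
TPM of 6 genes in each library: the 3 called genes in the top row and, below, Vmn1r221 and Vmn1r222, whose knockout libraries were all higher, and Vmn1r210, the chromosome 13 gene with the highest mean. Points from left to right are replicates 1 to 4 and bars the mean ± SD; the top row and the first 2 lower panels show no overlap between genotypes, and the knockout points of Vmn1r210 lie within the heterozygous range.

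How many genes were called depended on the filter, the scaling and the terms of the fit. With no filter on low values limma called Vmn1r232 alone of the V1R genes of both sets, and Vmn1r202 (adjusted p 0.0627 at -2.42) and Vmn1r236 (adjusted p 0.137 at -2.44) were not called, against 0.189% of all genes in that fit called lower. After median-ratio scaling limma called 5 genes of chromosome 13 and 7 of chromosome 17, all lower, against 0.625% of all tested genes. In the 6 animals of the later number series it called 2 and 6 without a sex term, against 0.744%, and 4 and 11 with one, against 1.47%. In the fit with the sex term knockout replicate 1, the shallowest library, is the only knockout library with weight, so those calls set 1 library against 2. With knockout replicate 1 left out and the sex term kept, heterozygous replicate 1, the library with low Omp, is the only heterozygous library with weight. That fit called 0 of either set, against 0.227% of all tested genes called lower, at log2 fold changes of -2.61 for Vmn1r202, -2.52 for Vmn1r232 and -2.07 for Vmn1r236. With knockout replicate 1 left out and no sex term, an alternative added after seeing the data, all 3 genes were called, against 0.399% of all tested genes, at -2.39, -2.64 and -1.95 (limma adjusted p 0.00327, 0.000534 and 0.0359).

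On chromosome 17 all 14 genes had a lower mean in knockout libraries and all 13 tested genes had a fold change below the median gene, from -2.73 to -0.85, with a median of -1.38. For comparison, 80 of the 105 other tested V1R genes were below the median gene, with a median of -0.89, and 6 of them were called lower and 1 higher. Relative to Gnai2, every knockout library was below every heterozygous library for 14 of 14 chromosome 17 genes, for 18 of 34 chromosome 13 genes and for 76 of 159 other V1R genes, against 2.57% of all listed genes. In TPM as deposited the same held for 7 of 14, 12 of 34 and 39 of 159, against 1.23% of all listed genes. No test was made between these sets.

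The chromosome 17 genes with the highest levels were Vmn1r228, Vmn1r231, Vmn1r230, Vmn1r233 and Vmn1r236. Vmn1r228, the V1re gene nearest in sequence to Vmn1r232 (77.02% identity), was at 9.04, 6.16, 19.0 and 13.2 TPM in heterozygous and at 2.95, 4.83, 5.77 and 8.03 TPM in knockout replicates 1 to 4. The genotypes overlapped, and the log2 fold change of -1.37 was not called. Vmn1r230, the one gene of the 48 whose nearest relative was outside the set (Vmn1r68, 64.1% identity), was at 7.62 ± 3.01 and 4.14 ± 1.504 TPM (SD, n = 4 each), a log2 fold change of -1.18.

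Vmn1r233, the V1rf gene nearest to Vmn1r236 (74.7% identity), was at 6.18 ± 3.23 TPM in heterozygotes against 3.33 ± 1.35 TPM in knockouts (SD, n = 4 each). Its log2 fold change of -1.04 was among the smallest of the set, with Vmn1r225 at -0.85 and Vmn1r237 at -1.19. Vmn1r227, a V1re gene, was at 2.01 ± 0.740 and 0.345 ± 0.085 TPM (SD, n = 4 each), without overlap, a log2 fold change of -1.70 that was not called (adjusted p 0.158 by limma). Limma-voom called Vmn1r227 lower at -2.67 (adjusted p 0.0068), as did limma after median-ratio scaling (adjusted p 0.0059). Without a filter it was not called (limma adjusted p 0.220). All 4 had a lower mean in knockout libraries; the differences between their fold changes were not tested.

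The heterozygous libraries spread their chromosome 17 RNA more evenly over the genes. The effective number of genes, the exponential of the Shannon entropy of their TPM shares, was 11.2 ± 0.114 in heterozygotes against 9.92 ± 0.251 in knockouts, and 23.0 ± 0.583 and 18.9 ± 0.368 for chromosome 13 (SD, n = 4 each). Neither overlapped between genotypes. Genes at 0.5 TPM or more numbered 27, 25, 29 and 28 in heterozygous and 20, 24, 23 and 24 in knockout replicates 1 to 4 for chromosome 13, and 13, 12, 14 and 13 against 7, 11, 10 and 11 for chromosome 17. Knockout replicate 1, the shallowest library and the only female knockout, had the fewest detected genes in both sets.

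On chromosome 13 the picture was mixed. Of 25 tested genes 17 were below the median gene and 8 above, from -2.46 to 1.02, with a median of -0.52. That median was -0.26 without the sex term and -0.20 without it in the animals of the later number series; without the sex term and with heterozygous replicate 1 left out it was -0.12. Of all 34 genes, 23 had a lower and 11 a higher mean in knockout libraries. All knockout libraries were below all heterozygous libraries in TPM for 12 of the 34, and above them for 2, against 0.777% of all listed genes in that direction.

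**Figure D3:**
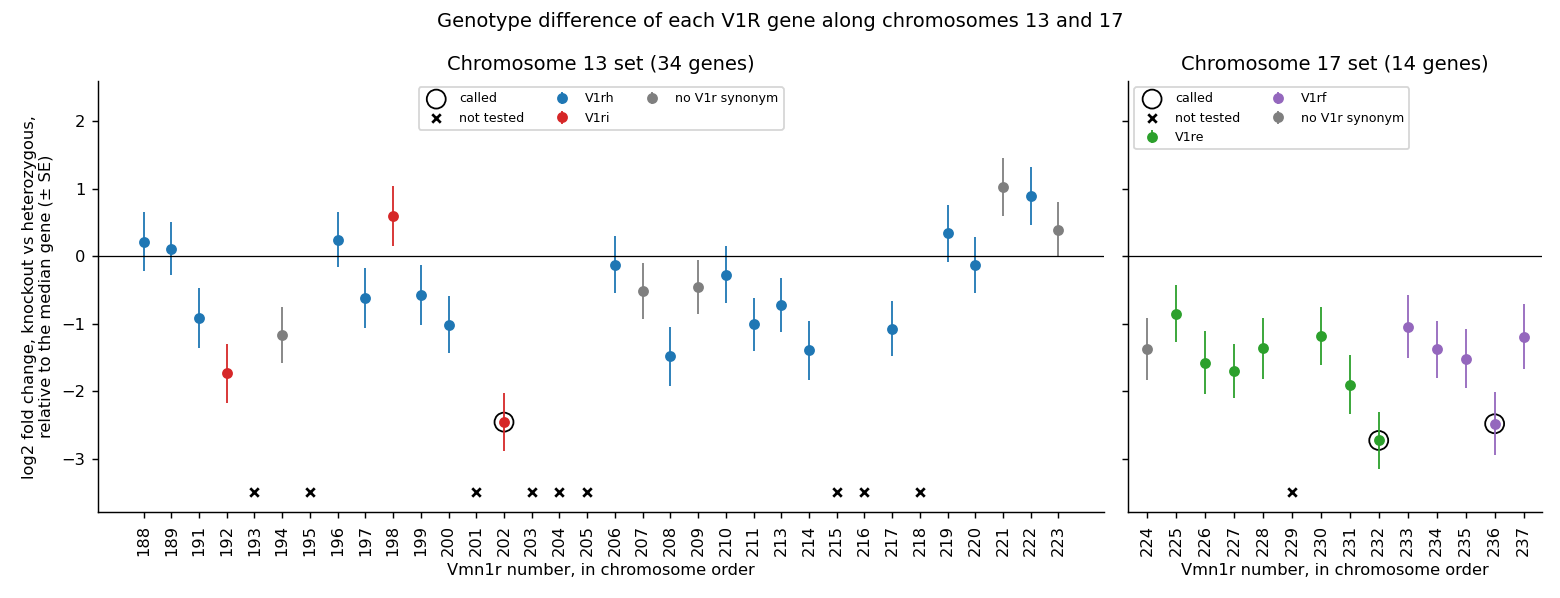
Log2 fold change, knockout against heterozygous and relative to the median gene, with its standard error, of each tested gene in chromosome order; colours give the clade, rings the 3 called genes and crosses the 10 genes not tested for low values. All chromosome 17 points lie below 0, and at the right end of the chromosome 13 set 4 of 5 points lie above 0.

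Of the 9 V1ri genes 8 had a lower mean in knockout libraries. Vmn1r192 was at 5.43, 4.93, 14.6 and 9.57 TPM in heterozygous and at 1.71, 2.24, 2.40 and 2.81 TPM in knockout replicates 1 to 4, without overlap. Its log2 fold change was -1.73 and was not called (adjusted p 0.225 by limma). After median-ratio scaling limma called Vmn1r192 lower (adjusted p 0.0046), as did limma-voom (adjusted p 0.0492). Without a filter it was not called (limma adjusted p 0.497). Vmn1r198, 88.7% identical to Vmn1r192, stood on the other side, at 1.08, 0.746, 2.75 and 1.26 TPM in heterozygous and at 1.83, 2.97, 2.84 and 4.68 TPM in knockout replicates 1 to 4. The groups overlapped in heterozygous replicate 3, and its log2 fold change of 0.60 was not called; it was the one V1ri gene of 9 with a higher mean in knockout libraries.

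Of the 9 chromosome 13 genes too low to be tested, all had a lower mean in knockout libraries. Vmn1r193 had 20 to 66 recovered reads per heterozygous library and 0 to 4 per knockout library, and Vmn1r201 had 7 to 24 and 0 to 1. Vmn1r204, nearest in sequence to Vmn1r202 (87.9% identity), had 4 to 11 reads in heterozygous libraries and 0 in each knockout library. Against a floor of 3 reads per library its mean was at least 2.03-fold lower. Vmn1r205 had 2 to 8 reads against 0 in each knockout library, at least 1.80-fold lower. Vmn1r195 was at 0.00892 to 0.101 TPM in heterozygous and 0 to 0.0122 TPM in knockout libraries. Heterozygous replicate 1 and knockout replicate 2 were above 0 TPM yet came out at 0 recovered reads. The reads of Vmn1r195 were therefore not recovered reliably, and no fold is given. These floors cover counting error only.

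Among the V1rh genes, Vmn1r210 had the highest mean of the chromosome 13 set. It was at 7.505, 5.55, 14.4 and 11.1 TPM in heterozygous and at 5.67, 10.2, 12.9 and 10.96 TPM in knockout replicates 1 to 4, so that every knockout library lay within the heterozygous range. Vmn1r196, Vmn1r188 and Vmn1r206 were the next highest of the clade, with log2 fold changes of 0.25, 0.22 and -0.12, none called. Vmn1r208, 88.6% identical to Vmn1r210, was at 2.62 ± 1.14 and 0.992 ± 0.424 TPM (SD, n = 4 each), and Vmn1r214 at 2.20 ± 1.06 and 0.673 ± 0.243 TPM. Neither gene overlapped between genotypes, and neither was called, at log2 fold changes of -1.48 and -1.39.

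The 2 highest fold changes of the set were those of Vmn1r221 and Vmn1r222, at 1 end of the array. Vmn1r221 was at 0.782, 0.608, 1.79 and 1.28 TPM in heterozygous and at 2.07, 3.76, 3.64 and 4.52 TPM in knockout replicates 1 to 4. Vmn1r222 was at 0.725, 1.45, 1.82 and 2.32 TPM in heterozygous and at 2.45, 4.21, 4.61 and 3.03 TPM in knockout replicates 1 to 4. In TPM every knockout library was above every heterozygous library for both genes. As a share of V1R TPM and relative to Gnai2 this held for Vmn1r221, while Vmn1r222 overlapped on both scales. Over the 34 genes, 6 were higher without overlap as a share (Vmn1r188, Vmn1r196, Vmn1r198, Vmn1r219, Vmn1r221 and Vmn1r223), against 1.8% of all listed genes, and 4 relative to Gnai2, against 0.799%. Among the 159 other V1R genes, 19 were higher as a share and 12 relative to Gnai2. Lower without overlap were 17 of the 34 as a share and 18 relative to Gnai2, against 70 and 76 of the 159. The log2 fold changes of Vmn1r221 and Vmn1r222 were 1.02 (SE 0.43, adjusted p 0.627 by limma) and 0.90 (SE 0.43, adjusted p 0.952 by limma), so neither passed the test. After median-ratio scaling without the sex term Vmn1r221 was called higher, against 0.163% of all tested genes. Vmn1r223, at 1.14 ± 0.438 and 2.12 ± 0.509 TPM (SD, n = 4 each), had a log2 fold change of 0.40.

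Summed, the 5 genes Vmn1r219 to Vmn1r223 were 12.8% ± 1.06 of chromosome 13 TPM in heterozygotes against 24.4% ± 1.44 in knockouts (SD, n = 4 each). All 5 had a higher mean in knockout libraries, while all 7 genes from Vmn1r211 to Vmn1r218, their neighbours in the array, had a lower one. The neighbouring stretch was 1.29% ± 0.160 of V1R TPM in heterozygotes against 0.532% ± 0.0706 in knockouts (SD, n = 4 each), without overlap. These stretches were delimited after their values had been seen and were not tested.

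**Figure D4:**
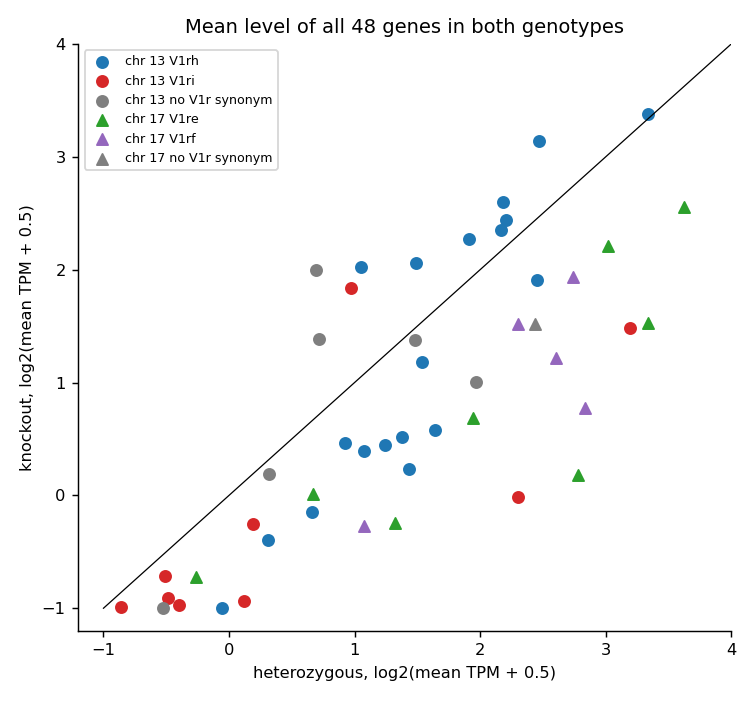
Mean level of each of the 48 genes over 4 heterozygous (horizontal) and 4 knockout libraries (vertical), both as log2(mean TPM + 0.5); the line marks equal levels. Circles are chromosome 13 and triangles chromosome 17 genes, coloured by clade; all 14 triangles lie below the line, and the circles lie on both sides.

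Close relatives were compared pair by pair. Among gene pairs with at least 85% identical coding sequence, 49 had both genes tested, and in 22 of these (44.9%) the genes stood on opposite sides of the median gene. All such pairs lie on chromosome 13, where the share over all 300 pairs of tested genes was 45.3%. At this limit, relatives therefore stood on opposite sides about as often as any pair of the set. The closest tested pairs, from 95.94% down to 91.92% identity, all stood on the same side. The next pair, Vmn1r189 and Vmn1r200 at 91.88%, stood on opposite sides. This closer range was set after the values were seen and was not tested. Vmn1r221 and Vmn1r200, printed above, are 91.0% identical and had log2 fold changes of 1.02 and -1.02. Vmn1r189 is 95.6% identical to Vmn1r221 and 91.9% to Vmn1r200, and stood between them at 0.11. How the authors assigned reads that match several genes was not given in the sources used here, so the values of such relatives are uncertain to that extent.

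Genes beside the arrays gave a local comparison. Within 1 Mb, 28 tested genes before the chromosome 13 array that are not chemoreceptors had a median log2 fold change of -0.13 and 30 after it -0.22, and 23 after the chromosome 17 array 0.04. The 3 such genes tested inside the chromosome 17 array lay between -0.09 and 0.11, while the 2 tested V2R entries there were at -1.35 and 0.38. The 3 tested V1R pseudogenes inside the chromosome 13 array ranged from -0.85 to 0.83. A V1R pseudogene in the chromosome 17 array, Vmn1r-ps144, had a fold change of 1.58, opposite to its intact neighbours, and 2 V1R pseudogenes before that array had fold changes of -1.23 and -0.86; none was called. Of 7 tested type 2 receptor entries in the 1 Mb before the chromosome 17 array, limma called 3, 2 lower and 1 higher (Vmn2r100, Vmn2r-ps123 and Vmn2r105), with fold changes of the 7 from -2.17 to 2.39. Over all tested genes 0.374% were called lower and 0.212% higher. Of the 76 called lower, 22 were neither V1R nor V2R entries, and of the 43 called higher, 34 were neither. The formyl peptide receptor gene inside the array, of a family that also serves vomeronasal neurons, had a fold change of -1.18, and the 2 before it -1.38 and -1.30; none of the 3 was called.

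Of the V1R transduction genes, 20 were chosen, 19 had a row and 17 could be tested; the transduction channel gene Trpc2 was not analysed here. Limma called 0, 1 had an unadjusted p under 0.05, limma-voom called 0, and the median log2 fold change was 0.06. The gene with the low unadjusted p was Omp, at a log2 fold change of 1.28, whose level in heterozygous replicate 1 is given above. Itpr3, a calcium release channel, was at 0.56, the phosphodiesterase gene Pde4a and the chloride channel gene Ano2 at -0.23 each, and Gnai2, the G protein subunit of V1R neurons, at 0.06. For 14 genes of receptor choice and quality control, among them Lhx2, Ebf1 and Lbr, the median was -0.08; limma called 0, 0 had an unadjusted p under 0.05 and limma-voom called 0. A p that misses the threshold does not show that these genes were equal in both genotypes.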

How the data were processed

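The authors deposited 1 table of TPM values, with 1 column per library and 27532 genes. Per the labels' protocols, RNA with an integrity number above 7 was polyA-selected and made into strand-specific libraries (NEB Ultra II Directional) for paired 150-base Illumina reads. Per the submitters' processing notes, Trim Galore 0.6.5, cutadapt 5.1, STAR 2.7.11b and deepTools 3.5.5 were used with mm10 and GRCm38; the counting program was not given in the sources used here.

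Reads were recovered from TPM and GENCODE M21 exon lengths; 97.8% to 98.3% of low values (up to 20 reads) were whole within 0.05. Genes averaging 0.5 TPM or more were fitted on log2(TPM + 0.5) with limma 3.58.1 (R 4.3.3; lmFit, eBayes with trend; genotype and sex), tested on simulated data first. Sex is unbalanced, so heterozygous replicate 1 and knockout replicate 1 weigh most in the fit. P-values measure the spread between animals. Sequences were aligned with Biopython 1.88. Of 43 genes with a RefSeq promoter window, 38 had it placed at the start codon, so promoters are not shown.

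The genes, lists and tests were chosen with earlier results of these data known. Named were all called genes, the 5 highest, 4 lowest and 4 highest fold changes per set and those nearest the threshold; other genes were named after their values were seen. Alternatives were other pseudocounts, filters, scalings, terms, animal series and left-out libraries.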

Additional observations from a re-analysis of the deposited data

Results flagged for a closer look

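In 62 groups of 4 libraries examined (the TPM of each named gene and the summed measures), 2 held a library far from the other 3 of its group, and chance alone marks about 1 in 20 groups. Both were knockout replicate 1, the shallowest library and the only female knockout. Vmn1r208 was at 0.360 TPM there against 1.14 to 1.25 TPM in the other knockout libraries, and Vmn1r223 at 1.36 TPM against 2.32 to 2.40 TPM.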

How the results depend on the processing

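The differences in the chromosome 17 share and in the ratio of the sets come from no fit, so scaling and the terms of the fit cannot move them. Both differences stayed negative in females, in males and with each library left out in turn. The counts of calls, which depend on all settings, did not hold. Genes called over the whole table were 119, and 396 with the animals of the later number series (later animals) and the sex term, where knockout replicate 1 alone stands for the knockouts, 183 with them without it, 152 with the animal series term, 108 with limma-voom, 155 with median-ratio scaling, 132 with no sex term, 178 with no sex term and median-ratio scaling, 151 scaled to Gnai2 and 72 without a filter. Lower calls on chromosome 13 were 1, and 4 (later animals with sex), 2 (without), 4 (animal series term), 2 (limma-voom), 5 (median-ratio scaling), 0 (no filter), 2 (no sex term), 5 (no sex term with median-ratio scaling) and 5 (scaled to Gnai2); on chromosome 17 they were 2, and in the same order 11, 6, 10, 4, 7, 1, 4, 7 and 9. One higher call appeared, 1 on chromosome 13 with no sex term and median-ratio scaling. Those with no sex term and median-ratio scaling and scaled to Gnai2 were chosen after seeing the data, as were fits with no sex term and 1 library left out: without knockout replicate 1 these called 1 and 2 genes lower, with a chromosome 17 median of -1.13 and Vmn1r210 at 0.11, and without heterozygous replicate 1 2 and 3, with a chromosome 13 median of -0.12 and Vmn1r206 at 0.18. The median fold change of chromosome 17 genes was -1.38, and -1.81 (later animals with sex), -1.75 (animal series term), -1.76 (limma-voom) and -1.72 (pseudocount 0.1); that of chromosome 13 was -0.52, and -0.20 (later animals without sex), -0.26 (no sex term) and -0.23 (no sex term with median-ratio scaling). Signs turned for Vmn1r188 (-0.15 with the later animals and sex, -0.12 with the series term), Vmn1r206 (0.20 with the later animals without sex, 0.099 without the sex term, 0.095 with median-ratio scaling as well) and Vmn1r210 (-0.65 to 0.097 leaving out each library, above 0 without knockout replicate 1). The log2 difference of summed chromosome 13 TPM was -0.11, -0.73 in females (1 knockout library) and 0.24 in males (1 heterozygous library); that of chromosome 17 was -1.43, -2.30 in females and -0.91 in males. The chromosome 17 share differed by -7.60 points, -8.25 in females, -6.61 in males and -6.80 without the highest gene of each set, and the log2 ratio by -1.31, and -1.56 in females. At a limit of 0.25 TPM, -2.5 chromosome 13 and -1.25 chromosome 17 genes were detected in knockout against heterozygous libraries, in place of -4.5 and -3.25. The cause of these shifts was not tested.

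Leaving out each library in turn gave 86 to 257 genes called, 0 to 2 chromosome 13 and 0 to 4 chromosome 17 genes called lower and 0 to 0 higher, medians of -0.56 to -0.48 and -1.74 to -1.05, sums differing by -0.36 to 0.12 and -1.70 to -1.16, shares by -2.15 to -1.42 and -7.89 to -7.46 points and a log2 ratio of -1.43 to -1.24. With the sex term kept, leaving out replicate 1 of either genotype leaves 1 library with weight in the other. Without knockout replicate 1 none of the 3 genes was called, at -2.61 (Vmn1r202), -2.52 (Vmn1r232) and -2.07 (Vmn1r236), and without heterozygous replicate 1 Vmn1r202 was not, at -2.32; the lone library is assumed to vary like the others. The replicate numbers do not pair the samples: correlations of the deviations of same-numbered libraries were -0.061 to 0.097. With the replicate number as a block and sex, limma called 1 and 2 genes as before; as a block without sex, 2 and 3, with a chromosome 13 median of -0.26 and Vmn1r206 at 0.099.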
